A study of Sus scrofa with 10 samples.

Results

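The nuclear genes of the respiratory chain and of ATP synthase were examined in the Longissimus lumborum, the loin muscle, of Alentejano (AL) and Bísaro (BI) pigs. Members were chosen by gene symbol, as the structural subunits of complexes I to IV and of ATP synthase, leaving out assembly factors and the genes of the mitochondrial genome. The rule found 63 of the 25880 genes in the deposited table, of which 14857 were paired with a symbol. Of these members, 28 belong to complex I, 4 to complex II, 6 to complex III, 15 to complex IV and 10 to ATP synthase. NDUFA4 and its paralogue NDUFA4L2 were placed with complex IV, since NDUFA4 is a subunit of cytochrome c oxidase despite its name. The symbols NDUFA1, NDUFA3, NDUFB3, NDUFS7, UQCRB, UQCRH, COX6B1, COX6C and ATP5F1B, among others, were not paired with an identifier and are not analysed here.

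The AL and BI groups held 5 pigs each, purebred castrated males kept free-range on commercial feed and slaughtered near 150 kg, which the labels give as carcass weight and the methods of the study as body weight. AL is the fatter and BI the leaner of these Portuguese local breeds, and neither received a treatment or carried a transgene. The ages of the pigs were not given in the sources used here. Each pig gave 1 stranded messenger RNA library from whole muscle.

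The inner mitochondrial membrane holds the respiratory chain. Complex I takes electrons from NADH and complex II takes them from succinate, complex III passes them to cytochrome c, and complex IV, cytochrome c oxidase, hands them to oxygen. Complexes I, III and IV pump protons, and ATP synthase lets the protons return and makes ATP. Most subunits are encoded in the nucleus and are abundant in oxidative muscle fibres, and some subunits of complex IV have a heart and skeletal muscle isoform beside a liver or ubiquitous one.

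The values are normalised counts, the reads counted on a gene divided by the size factor of the pig. Between 2298045 and 3343194 reads were counted on genes per pig. The paper reports many times more sequenced reads per sample, nearly all aligned, so only a small part was counted on genes. The reason was not tested. 1 read was worth 0.824 to 1.13 normalised counts, so that low values rest on about as many reads. Muscle fibre markers (9 of 12 in the table, none at 0) summed to between 19300.0 and 40055 in AL pigs and between 34673 and 54837 in BI pigs. All 9 had a higher fitted mean in BI, with a median log2 fold change of -0.26 and no adjusted p below 0.409. The other markers that were tested had a higher fitted mean in AL, none past the threshold. MYH6, listed as a cardiac marker, had a mean of 741 in this loin muscle. Its log2 fold change was 0.93 (SE 0.26, limma adjusted p = 0.299). It was 0.59 for COL1A1 (SE 0.44) and 0.45 for COL3A1 (SE 0.52) of fibroblasts, and 0.55 for CD68 (SE 0.40) of macrophages. The lists were not split by fibre type. Of the untested markers, HBB of red blood cells had means of 1.19 in AL and 3.17 in BI. ALAS2 had 4.37 and 8.61. The endothelial PECAM1 had 4.60 in AL and 2.06 in BI, and CDH5 had 3.31 and 2.89. The 6 adipocyte markers summed to between 7.55 and 26.4 in AL pigs and between 16.9 and 32.8 in BI pigs, and none reached the minimum for the test. CIDEC carried the largest part of this sum, with means of 7.72 in AL and 14.4 in BI. LPL had 5.15 and 5.84, FABP4 1.14 and 1.81, and LEP 0 and 0.220. PLIN1 had 2.72 and 1.28, and ADIPOQ 0.356 and 0.211. In whole muscle, fewer fibres of a type and less RNA per fibre cannot be told apart, and the part of these markers in the results below was not tested.

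All 63 members had at least 1 read, and the group was split between a few members with very high counts and many with low counts. Abundant, here and below, means a high count. Levels between genes are compared as normalised counts per kilobase of RefSeq exon. The strand setting of the counting is not given in the sources used here. These are therefore levels of counts, and what they say of transcript levels was not tested. On this scale NDUFB10 had a mean of 85467, COX7A1 of 6425, COX6A1 of 2659 and NDUFS1 of 1144. The next members were NDUFB11 at 77.3, COX4I1 at 48.2 and COX5B at 35.6. The median over the 63 members was 8.73 per kilobase, against 0.603 over the 10618 genes with a read and a length. NDUFB10, NDUFS1, COX7A1 and COX6A1 together took 98.5 to 99.3% of all reads counted on members in each pig. By normalised count, 4 members had means from 1473 to 70767, 17 a mean between 10 and 100, and 41 a mean under 10. UQCRC2, at a mean of 149, was the remaining one.

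**Figure D1:**
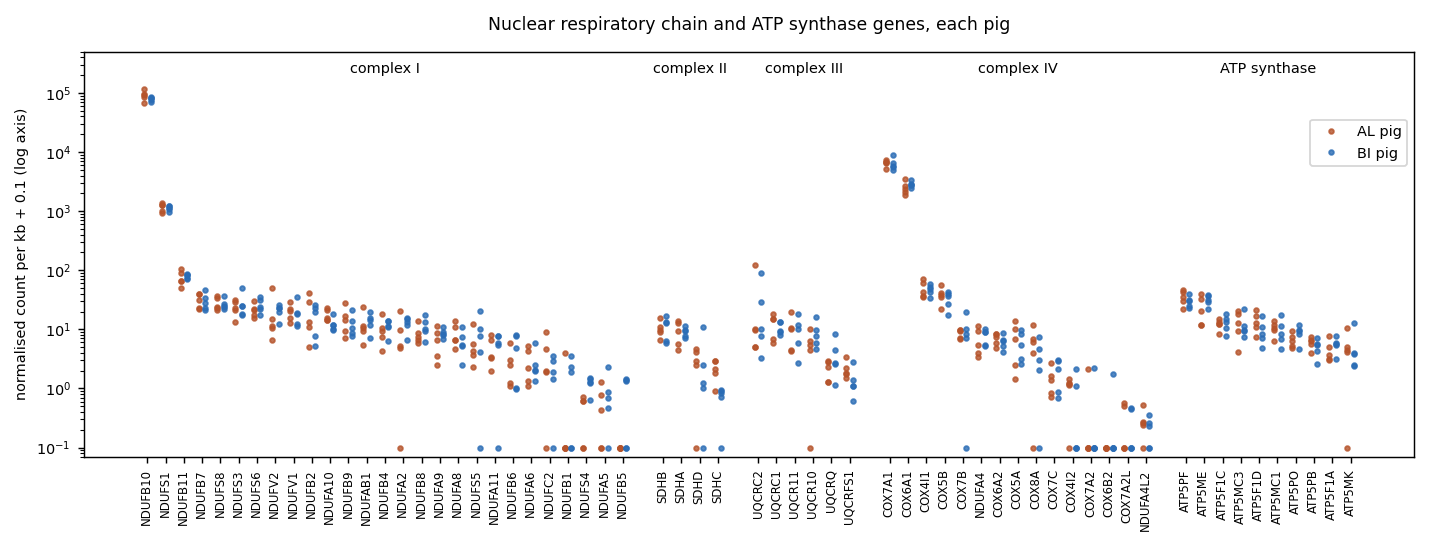
Normalised count per kilobase of RefSeq exon, plus 0.1, on a log axis, for 62 members by complex, with 1 point per pig and AL and BI pigs in separate colours. NDUFB10, COX7A1, COX6A1 and NDUFS1 stand above all other members in every pig, and UQCRC2 has AL46 and BI42 far above its other pigs.

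Several members lie close to a gene on the opposite strand, and a few such places are shown because the neighbour and the member had very unequal levels. NDUFS1 (ENSSSCG00000016127; Sscrofa11.1 chr15:109413726-109451813, minus strand) starts 87 bases from EEF1B2, which runs the other way. ATP5F1C (ENSSSCG00000034086; chr10:63584288-63599537, minus strand) starts 74 bases from KIN, SDHD (ENSSSCG00000015034; chr9:39790654-39803602, plus strand) starts 90 bases from TIMM8B, and NDUFB9 (ENSSSCG00000005976; chr4:15105305-15113281, minus strand) starts 36 bases from TATDN1. These gaps lie at chr15:109451814-109451900, chr10:63599538-63599611, chr9:39790564-39790653 and chr4:15113282-15113317. Their bases, from the RefSeq genome Sscrofa11.1 and written 5′ to 3′ on the strand of the member, are given here from the start of the neighbour up to the start of the member. Capitals mark matches on either strand to CCGGAAG, the core bound by the ETS factor GABPA, or to TCAAGGTCA, bound by ERR alpha.
NDUFS1, gap to EEF1B2: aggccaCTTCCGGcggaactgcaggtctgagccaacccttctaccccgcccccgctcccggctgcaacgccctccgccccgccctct
ATP5F1C, gap to KIN: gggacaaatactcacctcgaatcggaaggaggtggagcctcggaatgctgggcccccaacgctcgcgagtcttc
SDHD, gap to TIMM8B: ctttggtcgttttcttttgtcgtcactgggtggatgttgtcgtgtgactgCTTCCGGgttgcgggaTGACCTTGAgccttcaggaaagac
NDUFB9, gap to TATDN1: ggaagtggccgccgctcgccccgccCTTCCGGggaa

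GABPA, NRF1, YY1 and ERR alpha are transcription factors long known from the promoters of respiratory chain genes. Their letters were searched on both strands from 250 bases before to 50 bases after the RefSeq start of 62 members and of 19438 other protein-coding genes. The GABPA letters CCGGAAG were found in 33.9% of the member windows and in 10.9% of the others. The NRF1 core GCATGCGC was found in 14.5% and 3.03%, the YY1 letters AAGATGGC in 8.06% and 2.46%, and the ERR alpha letters TCAAGGTCA in 3.23% and 0.350%. None of the 4 strings contains another. At least 1 of the NRF1, GABPA and YY1 strings lay in 30 of the 62 member windows (48.4%) and in 15.2% of the others. NDUFS1 and COX6A1 had the GABPA letters, as did 19 members with a low count, while NDUFB10 and COX7A1 had none of the 4 strings. These are matches of letters in a window of the reference genome, and binding was not measured.

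AL and BI were compared over the 3315 genes whose normalised counts summed to 50 or more in the pigs of both breeds. Of the 63 members, 21 passed this minimum (10 of complex I, 1 of complex II, 2 of complex III, 5 of complex IV and 3 of ATP synthase) and 42 did not. No member had an adjusted p under 0.05 by limma, against 0.0302% of all genes tested, which is 1 gene. No member had an unadjusted p under 0.05 either, against 7.21% of all genes. By the exact permutation test 1 member, NDUFA10, had an unadjusted p under 0.05, against 7.09% of all genes. No member had AL and BI values that did not overlap, against 1.39% of all genes. DESeq2 on the recovered reads called 0.875% of all genes, with no member among them and no member at an unadjusted p under 0.05. The adjusted p of the members ran from 0.743 to 0.977.

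The fitted mean was higher in AL for 13 of the 21 members and higher in BI for 8, while 46.3% of all genes tested were higher in AL. The median log2 fold change of AL over BI was 0.05 over the members and -0.03 over all genes tested. By complex the median was 0.05 for complex I, -0.08 for SDHA alone in complex II, -0.07 for complex III, 0.05 for complex IV and 0.23 for ATP synthase. The signs of complexes I to IV and of the members together each changed under some alternative. With each pig left out in turn, the median over the members ran from -0.05, without AL46, to 0.13, without BI34.

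**Figure D2:**
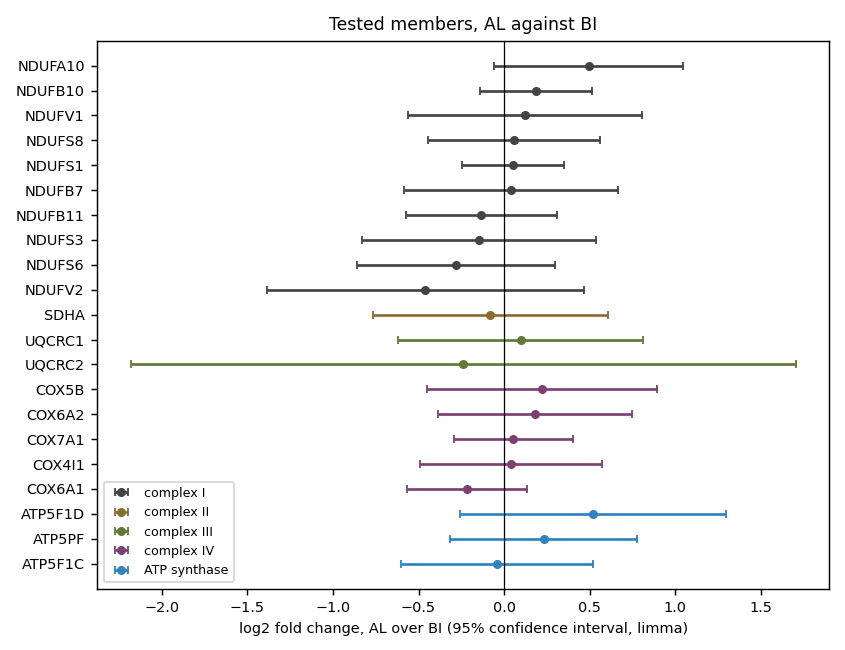
Log2 fold change of AL over BI with its 95% confidence interval from limma for the 21 members tested, coloured by complex. Every interval spans 0, the narrow ones being those of the 4 abundant members and the widest that of UQCRC2.

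Complex I held the most abundant member. NDUFB10 (ENSSSCG00000030328; chr3:40003109-40005650, minus strand, 4 exons) encodes an accessory subunit of the membrane arm. Its normalised count in the AL pigs was 56670 in AL44, 95451 in AL46, 77394 in AL49, 70406 in AL52 and 79038 in AL63. In the BI pigs it was 59173 in BI25, 70902 in BI34, 67451 in BI36, 62908 in BI37 and 68274 in BI42. AL44 had the lowest value of all and the other AL pigs lay above 4 of the 5 BI pigs, so the breeds overlapped. The means were 75792 ± 14091 in AL and 65742 ± 4667 in BI (SD, n = 5 each), a log2 fold change of 0.19 (SE 0.15, adjusted p = 0.846), with a 95% confidence interval of the fold change from 0.907 to 1.43.

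As a share of all reads counted on genes, NDUFB10 took 2.61 to 3.67% in AL pigs and 2.15 to 2.58% in BI pigs. On this scale the breeds did not overlap. Every AL pig lay above every BI pig for 1.69% of the genes tested, and NDUFB10 was the only tested member among these. The 10 genes with most reads took 48.5 to 55.9% of the reads in AL pigs and 54.4 to 60.3% in BI pigs, and their part in this share was not tested. Scaled by total reads, an alternative chosen after seeing the data, NDUFB10 had a log2 fold change of 0.28 and an adjusted p of 0.523, with the median of all genes shifted by 0.09.

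NDUFS1 encodes the largest iron-sulfur subunit of the electron-carrying arm. In AL pigs its count was 2494 in AL44, 3681 in AL46, 2679 in AL49, 3427 in AL52 and 3444 in AL63. In BI pigs it was 2941 in BI25, 3325 in BI34, 3229.9 in BI36, 2564 in BI37 and 2999.8 in BI42. The lowest and the highest value both came from AL pigs. The log2 fold change was 0.05 (SE 0.14, adjusted p = 0.963), with the fold change between 0.842 and 1.28 at 95% confidence.

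NDUFA10, an accessory subunit with a kinase-like fold (ENSSSCG00000016349; chr15:138999174-139031892, minus strand), had the smallest p of the members. Its count was 22.7 in AL44, 32.5 in AL46, 20.5 in AL49, 20.5 in AL52 and 30.5 in AL63. It was 14.003 in BI25, 26.4 in BI34, 14.7 in BI36, 17.0 in BI37 and 16.9 in BI42. BI34 lay among the AL pigs and the other BI pigs below all of them. The log2 fold change was 0.49 (SE 0.26, adjusted p = 0.743), and the exact two-sided permutation test gave p = 0.0476 (adjusted 0.672), where the smallest p the design allows is 0.00794. These counts come from 128 reads in AL and 91 in BI.

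The other complex I members tested had means between 16.9 (NDUFV2) and 89.6 (NDUFB11). Among the catalytic core subunits, NDUFV1, which binds NADH and FMN, had a log2 fold change of 0.12 (SE 0.32), NDUFV2 of -0.46 (SE 0.43), NDUFS3 of -0.15 (SE 0.32) and NDUFS8 of 0.06 (SE 0.23). NDUFV2 had 42.5 in AL44 and 5.66 to 13.0 in the other AL pigs, against 10.7 to 22.0 in BI pigs, and without AL44 its log2 fold change was -0.88. The accessory subunits NDUFS6, NDUFB7 and NDUFB11 had log2 fold changes of -0.28, 0.04 and -0.13. The 18 complex I members not tested included NDUFS4, a subunit well known from Leigh syndrome, at a mean of 1.34. NDUFS4 had 3 reads in the AL pigs together and 11 in the BI pigs, and NDUFB5 had 0 reads in AL and 3 in BI.

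**Figure D3:**
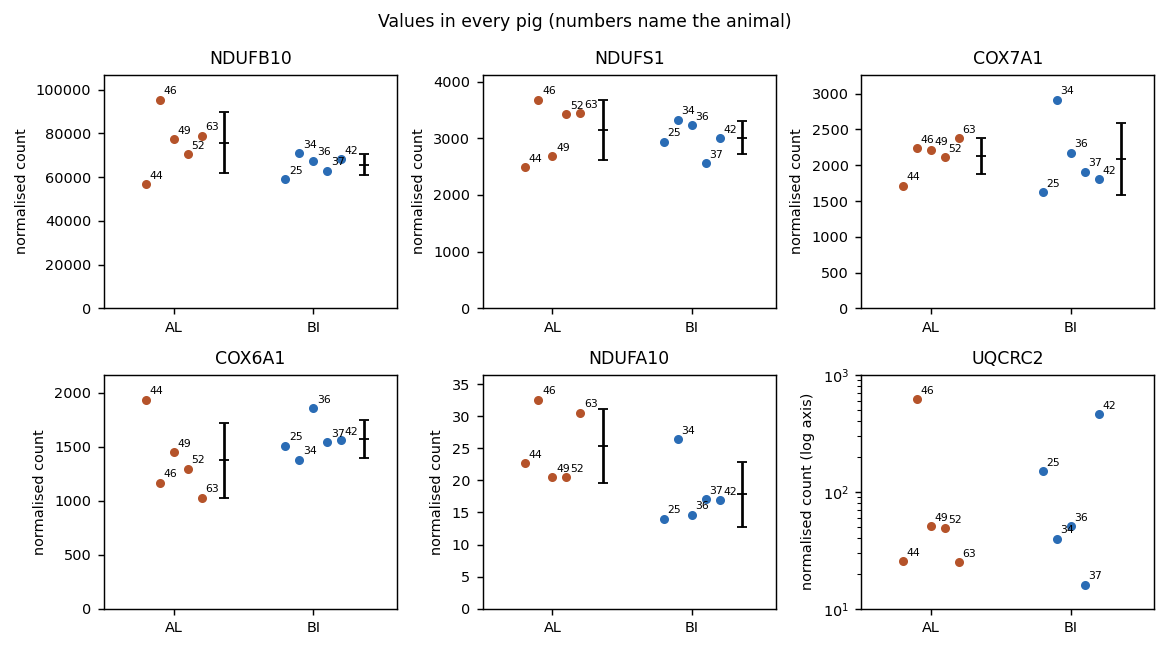
Normalised counts of 6 members in every pig, with the animal number beside each point and the mean ± SD (n = 5) of each breed beside the points, except for UQCRC2, which is drawn on a log axis without a mean. AL and BI overlap in every panel, and UQCRC2 runs from 16.03 in BI37 to 621 in AL46.

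Complex II, succinate dehydrogenase, is the only respiratory complex with no subunit from the mitochondrial genome. Its catalytic flavoprotein SDHA (ENSSSCG00000020686; chr16:79838442-79862956, minus strand) was the only member tested. SDHA had 15.1 in AL44, 33.5 in AL46, 11.9 in AL49, 24.9 in AL52 and 37.3 in AL63, and 18.9 in BI25, 30.8 in BI34, 25.9 in BI36, 25.1 in BI37 and 20.1 in BI42. The BI pigs lay within the range of the AL pigs. The log2 fold change was -0.08 (SE 0.32, adjusted p = 0.967). The iron-sulfur subunit SDHB had a mean of 8.90, and the membrane anchors SDHD and SDHC had means of 2.71 and 1.75. SDHC had 1 to 4 reads in each AL pig and 0 or 1 in each BI pig, below the minimum for the test.

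Complex III was carried by UQCRC2 and UQCRC1, the core proteins of the cytochrome bc1 complex. UQCRC2 (ENSSSCG00000007845; chr3:24197743-24228831, minus strand) had 25.5 in AL44, 621 in AL46, 50.7 in AL49, 48.9 in AL52 and 24.9 in AL63. In the BI pigs it had 151 in BI25, 39.7 in BI34, 50.9 in BI36, 16.03 in BI37 and 459 in BI42. AL46, BI42 and BI25 stood above the other 7 pigs, which lay between 16.03 and 50.9. The log2 fold change was -0.24 (SE 0.91, adjusted p = 0.966), moving to -1.06 without AL46 and to 0.41 without BI42. The coefficient of variation over the 10 pigs was 143%, against 13.2 to 19.0% for the 4 abundant members.

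UQCRC2 shares 2811 exonic bases with PDZD9 on the opposite strand, which had a mean of 1121 and ran from 888 to 1536 over the pigs. PDZD9 did not show the spread of UQCRC2. UQCRC1 (ENSSSCG00000011356; chr13:31298449-31308719, minus strand) had 10.4 in AL44, 31.6 in AL46, 11.9 in AL49, 25.8 in AL52 and 26.01 in AL63, and 15.7 in BI25, 23.1 in BI34, 16.4 in BI36, 23.0 in BI37 and 13.7 in BI42. The breeds overlapped, with a log2 fold change of 0.10 (SE 0.33, adjusted p = 0.964). UQCRFS1, the Rieske iron-sulfur protein, had a mean of 5.56, and the small subunits UQCR11, UQCR10 and UQCRQ had means between 2.31 and 4.14.

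Complex IV held the other abundant members. COX7A1 (ENSSSCG00000037792; chr6:45519225-45520721, minus strand, 4 exons) encodes the heart and skeletal muscle isoform of subunit VIIa. Its count was 1716 in AL44, 2238 in AL46, 2212 in AL49, 2111 in AL52 and 2375 in AL63. It was 1621 in BI25, 2916 in BI34, 2174 in BI36, 1910.1 in BI37 and 1801 in BI42. The BI pigs spanned the range of the AL pigs. The log2 fold change was 0.05 (SE 0.16, adjusted p = 0.963), with the fold change between 0.817 and 1.32 at 95% confidence.

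COX6A1 (ENSSSCG00000039265; chr14:40408600-40410810, plus strand, 3 exons) encodes the liver isoform of subunit VIa. Its count was 1934 in AL44, 1168 in AL46, 1448 in AL49, 1298 in AL52 and 1030.4 in AL63. It was 1511 in BI25, 1380.1 in BI34, 1859 in BI36, 1541 in BI37 and 1562 in BI42. AL44, the lowest AL pig for NDUFB10, NDUFS1 and COX7A1, was the highest of all pigs here. The log2 fold change was -0.22 (SE 0.16, adjusted p = 0.823).

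The counts of the tissue isoforms of complex IV were ordered differently by subunit. For subunit VIIa the muscle isoform was counted and the liver isoform COX7A2 almost not, at 6425 against 0.412 per kilobase, the latter from 2 reads in all pigs. For subunit VIa the order was the other way round, with the liver isoform COX6A1 at 2659 per kilobase and the heart and skeletal muscle isoform COX6A2 at 6.46. COX6A2 has a RefSeq model of 3365 exonic bases in 8 exons, long for this subunit, so its level per kilobase depends on that model. These are orders of counts under a strand setting that is not given in the sources used here, and what they say of the isoform transcripts was not tested. By count COX6A2 had 16.05, 27.9, 24.8, 19.6 and 27.1 in AL44, AL46, AL49, AL52 and AL63, and 20.6, 28.6, 13.8, 22.0 and 16.9 in BI25, BI34, BI36, BI37 and BI42. The breeds overlapped, at a log2 fold change of 0.18 (SE 0.26).

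Subunit IV showed the ubiquitous COX4I1 at 48.2 per kilobase and the hypoxia-related isoform COX4I2 at 0.764. COX4I1 had 31.2, 55.8, 33.4, 39.1 and 64.5 in AL44, AL46, AL49, AL52 and AL63, and 46.9, 51.8, 31.03, 39.1 and 43.3 in BI25, BI34, BI36, BI37 and BI42. Its log2 fold change was 0.04 (SE 0.25). COX4I2 had at most 2 reads in a pig. COX5B, tested at a mean of 17.3, had a log2 fold change of 0.22 (SE 0.31).

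NDUFA4 had 7.16 per kilobase and its paralogue NDUFA4L2 had 0.143. NDUFA4 ran from 3.24 to 11.3 in AL pigs and from 5.17 to 9.88 in BI pigs. COX7B ran from 3.24 to 4.72 in AL pigs and from 0 to 9.51 in BI pigs, and COX8A from 0 to 6.51 and from 0 to 4.01. COX6B2, a testis isoform, had 1 read in all pigs, and COX7A2L, linked to the joining of complexes III and IV, had 4.

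ATP synthase had no abundant member in these counts. ATP5F1C, the gamma subunit that turns inside the catalytic head, had 33.99 in AL44, 36.3 in AL46, 33.4 in AL49, 23.1 in AL52 and 41.8 in AL63. It had 49.4 in BI25, 20.9 in BI34, 29.3 in BI36, 37.1 in BI37 and 41.2 in BI42. The BI pigs spanned the AL pigs, and the log2 fold change was -0.04 (SE 0.26, adjusted p = 0.977).

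ATP5F1D, the delta subunit of the central stalk (ENSSSCG00000035532; chr2:77216430-77219301, minus strand), had 9.44 in AL44, 21.4 in AL46, 16.2 in AL49, 14.2 in AL52 and 27.1 in AL63. It had 9.06 in BI25, 22.0 in BI34, 6.03 in BI36, 14.03 in BI37 and 10.6 in BI42. AL63 was highest and BI36 lowest, with overlap between. Its log2 fold change, 0.52 (SE 0.36, adjusted p = 0.815), was the largest of the members tested. ATP5PF, coupling factor 6 of the peripheral stalk, had a log2 fold change of 0.23 (SE 0.26). The c subunits ATP5MC1 and ATP5MC3, which encode the same mature protein of the rotor ring, had 10.04 and 12.3 per kilobase. ATP5MC1 ran from 5.66 to 12.4 in AL pigs and from 4.12 to 15.4 in BI pigs, and ATP5MC3 from 2.83 to 13.9 and from 5.01 to 15.4. The catalytic alpha subunit ATP5F1A had a mean of 9.03.

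The median deviation of the 21 members from their own means, on the log2 scale, was 0.36 in AL46, 0.30 in BI34 and 0.27 in AL63. It was -0.29 in AL44, -0.24 in BI25 and -0.19 in both AL49 and BI42, and between -0.05 and 0.03 in the remaining pigs. The higher and the lower values each came from both breeds. Of the 21 members, 16 were above their own mean in AL46, 15 in AL63 and 15 in BI34, 8 in AL44 and BI42, and 6 in AL49 and BI25. The members of a pig did not all deviate one way, since COX6A1, NDUFV2, NDUFB11 and ATP5PF had their highest value in AL44, the pig with the lowest median. The members share the library and size factor of a pig, and this is a description with no test.

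**Figure D4:**
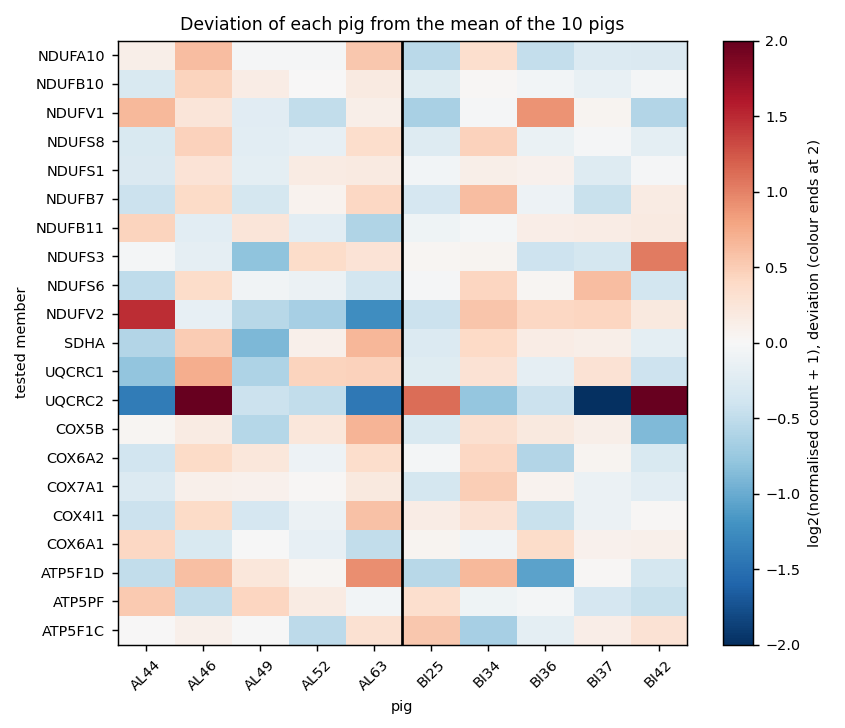
Deviation of log2(normalised count + 1) from the mean of the 10 pigs for the 21 members tested (rows, by complex) in each pig (columns), with the colour ending at 2 and AL left of the line. AL46, AL63 and BI34 are mostly red and AL44, AL49 and BI25 mostly blue, and UQCRC2 and NDUFV2 have the deepest colours.

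The libraries were stranded, but the strand setting used to count the reads is not given in the sources used here. Whether the reads counted on a gene came from its own strand or from the other strand is therefore not known here. Of the protein genes of the mitochondrial genome, ND6, the only one on the light strand, had a mean of 52623. The others had means from 15.6 to 2556. Which strand the counts stand for was not tested. A neighbour with a value in the table lay within 5000 bases on the opposite strand for 34 of the 63 members. The neighbour was higher per kilobase for 17 of these (50%), against 51.4% of 4241 other genes with such a neighbour. For 12 members a neighbour had a mean over 500. Of these members 11 had a mean of 149 or less, as had all but 4 of the 63 members. The matching share over other genes was not counted. KIN had 1078 beside ATP5F1C at 34.7, TIMM8B had 579 beside SDHD at 2.71, and TATDN1 had 1801 beside NDUFB9 at 9.23, the pairs whose gaps are printed above. WDR77, which shares 328 exonic bases with ATP5PB, had 1237 against 9.22, and CPSF2 had 501 against 0.542 for NDUFB1.

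Of the 4 abundant members, 3 showed the opposite order, and COX6A1 had no neighbour with a value to compare. These members were picked for their high counts, and the pairs named before them for a high neighbour. Both orders therefore follow from the choice of pairs. NDUFB10 overlaps RPS2, a ribosomal protein gene, by 2 exonic bases, and RPL3L, the muscle form of ribosomal protein L3, without shared exons, and these had means of 514 and 59.8. NDUFS1 at 3078 faced EEF1B2, a translation elongation factor, at 17.6 across the 87 bases printed above. COX7A1 at 2107 had CAPNS1, a calpain subunit, 614 bases from its end at 46.7. EEF1B2, CAPNS1 and RPL3L were named after their values were seen. Of the 13 neighbours with a mean over 500, limma called 0 between the breeds at an adjusted or an unadjusted p of 0.05, and DESeq2 called 0. The shares over all genes tested were 0.0302% and 7.21% by limma, and 0.875% by DESeq2 at an adjusted p.

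**Figure D5:**
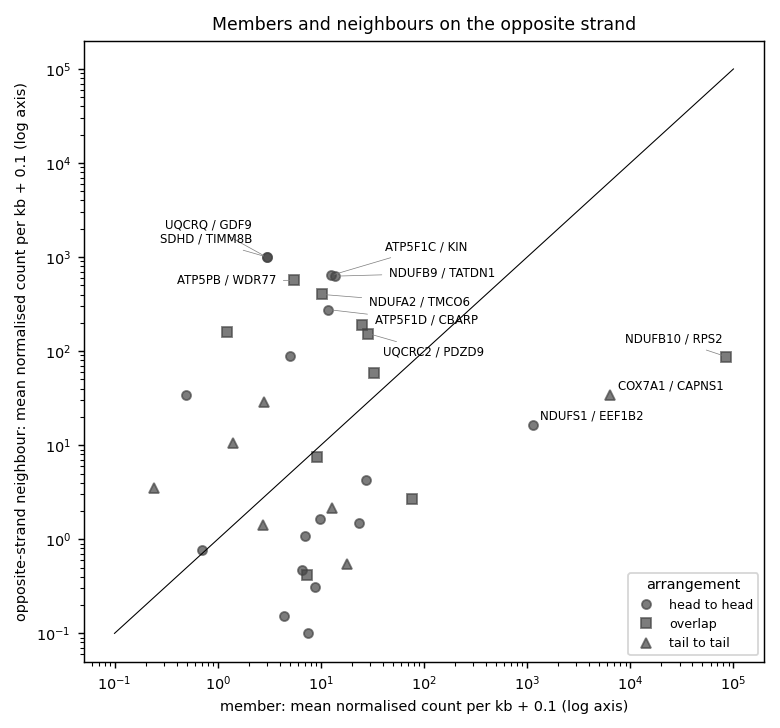
Mean normalised count per kilobase, plus 0.1, of members (horizontal) and of their highest neighbour on the opposite strand within 5000 bases (vertical), both on log axes, with the line of equal level and symbols for the arrangement of the pair. Of the 34 pairs, 17 lie above the line, and NDUFB10, COX7A1 and NDUFS1 lie far below it.

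Other genes of oxidative metabolism were read from lists of known function. Of the 47 genes of these lists that were tested, limma called 0 at an adjusted p of 0.05 and 0 at an unadjusted one, and DESeq2 called 0. Over all genes tested, limma called 0.0302% at an adjusted and 7.21% at an unadjusted p, and DESeq2 called 0.875% at an adjusted p. Of 57 assembly factors, 42 were in the table and 9 were tested, with 4 higher in AL, 5 higher in BI and a median log2 fold change of -0.02. UQCC3, an assembly factor of complex III, had a mean of 2153 and a log2 fold change of 0.01 (SE 0.13), and NDUFAF3, one of complex I, had 630.1 and -0.10 (SE 0.14). Of 18 regulators of mitochondrial biogenesis, 17 were in the table and 8 were tested, 6 of them higher in BI, with a median of -0.10. GABPA had a mean of 315 and shares 255 exonic bases with ATP5PF on the other strand, while the coactivator PPARGC1A had 1.52 and NRF1 had 1.76.

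All 18 citric acid cycle genes were in the table and 9 were tested, 3 higher in AL and 6 in BI, with a median log2 fold change of -0.13. Citrate synthase, CS, had a mean of 76.1 and a log2 fold change of -0.30 (SE 0.27). Of 17 carriers and electron transfer genes, 15 were in the table and 6 were tested, 3 in each direction, with a median of 0.04. Of 6 subunit genes outside the symbol rule, 2 were tested, among them CYC1, cytochrome c1, at 0.12 (SE 0.32). The 13 protein genes of the mitochondrial genome were all tested, 6 higher in AL and 7 in BI, with a median of -0.09. ND6, the only one of them on the light strand, had a mean of 52623, and the other 12 had means from 15.6 to 2556.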

How the data were processed

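Each of 5 AL and 5 BI pigs gave 1 library, mapped to a breed by the animal name in the labels. The authors used Trim Galore 0.5.0 for trimming, HISAT2 2.1.0 for alignment to Sscrofa11.1 (Ensembl annotation) and HTSeq 0.11.1 for gene counts. The deposited signal values are gene counts after scaling by DESeq2 size factors, and dividing by the smallest value gave whole reads (within 0.01) for 100% of them. The log2 fold changes, p-values, and, as scores, standard errors and Wald statistics that the authors deposited were not used.

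The members and lists were chosen with earlier results of these data known. Limma 3.58.1 (R 4.3.3) with intensity trend was run on log2(value + 1) for genes summing to 50 or more in both breeds, with Benjamini-Hochberg adjustment and a threshold of 0.05. Exact permutation tests covered the 252 divisions of the pigs. Alternatives were pseudocounts of 0.1 and 10, other minimums, other scalings, limma-voom, DESeq2 1.42.0, edgeR 4.0.16 and leaving out each pig. On simulated data with 200 of 3315 genes changed, limma recovered 96.9% of log2 changes of 2 and 47.1% of log2 changes of 1. Positions, exon lengths and sequences came from RefSeq release 106 of Sscrofa11.1 (pysam 0.24.0), matched by symbol or product name for 63 members, while counting used Ensembl models. Values in every pig are given for the highest member and the one with the smallest p in each complex and for isoform sets, and ranges for low ones. With 1 library per pig, p-values set the breed difference against the spread between libraries. In that spread, differences between animals, library preparation and counting error cannot be told apart. The labels name no sequencing batch. The values of 1 member that was not tested are not reported here.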

Additional observations from a re-analysis of the deposited data

Results flagged for a closer look

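In 5 of 42 groups of 5 pigs examined (21 members in each breed), the highest pig stood apart by Dixon's ratio above 0.71, where about 2.1 of 42, or 1 in 20, are flagged by chance. UQCRC2 in AL had 621 in AL46, at a ratio of 0.957. NDUFV2 in AL had 42.5 in AL44 (ratio 0.800). NDUFA10 in BI had 26.4 in BI34 (0.756), NDUFS3 in BI had 48.6 in BI42 (0.777) and NDUFS8 in BI had 54.0 in BI34 (0.727). The causes were not tested.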

How the results depend on the processing

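No paired analysis was possible because the breeds share no replicate numbers. No member passed an adjusted p of 0.05 in any of the 21 alternatives, the lowest being 0.231 without AL44. The count over all genes, 1, was 0 by limma where a mean of 50 was asked of both breeds (112 of 1513 at an unadjusted p), 40 with no minimum and 29 by DESeq2, and ran from 0 (without BI36, 209 at an unadjusted p) to 18 (without AL44). Medians moved or turned as well. Without a minimum, over all 63 members, that of ATP synthase was 0.0028, of complex I -0.14 and of complex II 0.098. With a mean of 50, over 6 members, the median of the members was -0.041 and of complex IV -0.082. Complex III turned to 0.16 by DESeq2, 0.19 by edgeR and 0.022 scaled by total reads. Of the 21 members, 9 had no sign change where they were run, but 7 of these were below a mean of 50 and not run with that minimum. SDHA turned to 0.012 when scaled by total reads, 0.025 by DESeq2 and 0.045 by edgeR with TMM, UQCRC2 to 0.11 and 0.15 by DESeq2 and edgeR, and ATP5F1C to 0.050 when scaled by total reads. With each pig left out in turn, the 12 others had log2 values of -0.21 to 0.087 for ATP5F1C, -0.26 to 0.00062 for NDUFB11, -0.069 to 0.20 for NDUFB7, -0.0095 to 0.13 for NDUFS1, -0.27 to 0.092 for NDUFS3, -0.051 to 0.18 for NDUFS8, -0.025 to 0.36 for NDUFV1, -0.26 to 0.14 for SDHA, -0.074 to 0.31 for UQCRC1, -1.06 to 0.41 for UQCRC2, -0.10 to 0.15 for COX4I1 and -0.029 to 0.18 for COX7A1, and the medians from -0.052 (without AL46) to 0.13 for the members, -0.052 to 0.11 for complex I, -0.26 to 0.14 for complex II, -0.57 to 0.21 for complex III, 0.012 to 0.18 for complex IV and 0.13 to 0.38 for ATP synthase. The cause was not tested. The 42 members below the minimum have few reads, and a log2 change of 1 was often missed in simulated data.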
